A study of Homo sapiens with 12 samples.

Results

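The Krüppel-like factors (KLFs) are zinc-finger transcription factors, and 10 of their genes were followed here by name: KLF2, KLF3, KLF4, KLF5, KLF6, KLF9, KLF10, KLF11, KLF13 and KLF16. These are 10 of the 32077 genes kept from the count table, and all 10 were found. RNA-seq was performed on cells of PC3 and DU145, human lines established from prostate cancer that are independent of androgen and are labelled wild type in genotype. Cells of each line were kept for 48 hours in medium with 2.5 µM pentamidine, an anti-protozoal aromatic diamidine, or in vehicle medium. The 4 groups had 3 samples each, 12 together, from wells of 1000000 cells. The labels do not say whether the 3 samples of a group came from separate cultures, so the p-values below measure the spread between these samples, which may be technical.

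KLF proteins bind GC-rich and CACCC-type DNA through zinc fingers at their carboxyl end, while the rest of the protein differs between members and recruits different partners. KLF2, KLF4, KLF5 and KLF6 mostly activate genes through acetyltransferases. KLF3 represses genes through the CtBP corepressors, and KLF9, KLF10, KLF11, KLF13 and KLF16 can recruit the SIN3A corepressor. Several KLF genes respond within hours to growth factors, hormones or stress. KLF4 is best known as a pluripotency reprogramming factor and as a factor of growth arrest in epithelia, and KLF5 and KLF6 have been studied as growth regulators in the prostate.

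The libraries differed from the usual description of these lines, and they are therefore called PC3-labelled and DU145-labelled. CTNNA1, a catenin gene known to be deleted in PC3 cells, was counted in the PC3-labelled libraries. Its level was 436 ± 5.89 CPM (counts scaled to a library of 1000000, SD, n = 3) in PC3-labelled vehicle samples and 411 ± 12.2 CPM in DU145-labelled vehicle samples. The counts are per gene and do not show which exons were covered. Of the 5 epithelial markers checked, EPCAM had at most 2 counts, KRT19 at most 3 and CDH1 at most 10 in any of the 12 samples, while KRT8 was at 20.2 ± 1.51 CPM in PC3-labelled and 2707 ± 89.3 CPM in DU145-labelled vehicle samples and KRT18 at 155 ± 14.2 CPM and 914 ± 23.6 CPM. Of the androgen-responsive prostate markers, KLK2 and KLK3 had at most 3 counts in any sample, and TMPRSS2 was not analysed here. KLF2 and KLF4 are also known from endothelium and from blood cells, so markers of other cells were summed as well. The summed level per sample was 0.0711 to 1.15 CPM for 4 endothelial markers, 0.337 to 3.13 CPM for 5 fibroblast markers and 0.0714 to 0.647 CPM for 4 leukocyte markers, with TEK, DCN and PTPRC among those at 0 in every sample of at least 1 group. Total counts were 13514195 to 15131436 per sample. Mitochondria-encoded genes took 3.79% to 4.66% of counts in vehicle samples and 1.97% to 2.76% in pentamidine samples, and no call of a member within a line changed when these genes were left out of the scaling. Vehicle replicate 1 of the PC3-labelled cells stood apart: its counts differed from the other samples of its group by a chi-square that averaged 5.98 and 7.31 over genes, beside 1.72 to 3.64 for the other pairs of samples within groups.

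KLF4 carried the largest change of the 10 genes in both labelled lines. For it and for KLF16, a member without a call in either line by the test used here, 3 stretches of DNA are shown. The first is the product of the study's quantitative PCR of KLF4, an assay apart from the counts used here. The others are the bases before the RefSeq start of each gene. KLF4 (ENSG00000136826) lies on the minus strand at chr9:107484852-107490482 of GRCh38, has 5 exons in its longest coding transcript (KLF4-201), and was also among the genes for which the study designed quantitative PCR primers. Those primers were found in 4 annotated transcripts of 1 gene, KLF4, and mark out 170 bases at chr9:107488079-107488248, inside coding exon 3 of KLF4-201. In the first line the capitals mark the places of both primers. The other lines give the 250 bases before the RefSeq start of KLF4 (chr9:107489770-107490019, minus strand) and of KLF16 (chr19:1863580-1863829, minus strand) from the RefSeq promoter table of GRCh38.p14, neither of which holds an annotated exon base. The RefSeq start of KLF4 lies 713 bases inside the gene span given above, which begins with the transcript KLF4-203, so the window falls in an intron of that transcript and before the start of the other annotated ones. Their capitals mark GGGCGG, the core of a GC box, on either strand.
KLF4 PCR product: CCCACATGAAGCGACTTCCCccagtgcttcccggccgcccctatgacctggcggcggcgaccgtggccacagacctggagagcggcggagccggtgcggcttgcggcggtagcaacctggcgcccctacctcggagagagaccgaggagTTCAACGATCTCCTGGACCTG
KLF4 upstream: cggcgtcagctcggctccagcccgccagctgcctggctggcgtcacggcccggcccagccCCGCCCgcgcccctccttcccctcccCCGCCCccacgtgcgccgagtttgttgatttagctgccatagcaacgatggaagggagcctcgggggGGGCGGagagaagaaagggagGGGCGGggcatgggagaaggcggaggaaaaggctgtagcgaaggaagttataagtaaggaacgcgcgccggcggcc
KLF16 upstream: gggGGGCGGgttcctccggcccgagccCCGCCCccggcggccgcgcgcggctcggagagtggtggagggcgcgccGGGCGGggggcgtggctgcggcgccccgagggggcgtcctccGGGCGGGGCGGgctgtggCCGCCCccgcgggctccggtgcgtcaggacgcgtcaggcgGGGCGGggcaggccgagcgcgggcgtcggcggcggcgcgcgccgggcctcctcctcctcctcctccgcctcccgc

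The KLF4 window held 4 copies of GGGCGG and the KLF16 window 7, at a GC content of 69.2% and 86.4%. The RefSeq table held such a window for 8 of the 10 members, 10 windows in all, and GGGCGG was found in all of them except that of KLF9 and 1 of the 2 of KLF5. Over all 35116 promoters of the table, 42.6% held GGGCGG, and the median GC content was 58%. The motif CACCC, searched on both strands, was in 4 of the 10 windows (both of KLF5, 1 of KLF11 and that of KLF13, where it overlapped a GGGCGG) and in 54.7% of all promoters. TATAAA was in 1 window, that of KLF5 with the lower GC content of 40.8%, and in 10.7% of all promoters. TGATGNAA, the letters of an ATF4 composite site, was in no window of a member and in 3.14% of all promoters. A match gives letters only and is not evidence of a bound factor. The KLF4 and KLF16 windows were both rich in GC and in GGGCGG, and whether the motif bears on the response was not tested.

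The first question was how pentamidine changed each KLF mRNA in each line. In PC3-labelled cells KLF4, KLF3, KLF11 and KLF13 rose and KLF10 fell, so that 5 of the 9 members tested passed an adjusted p of 0.05 (edgeR quasi-likelihood test with Benjamini-Hochberg adjustment over 13861 genes). Of all genes tested 43.4% passed, 21.7% upward and 21.7% downward. In DU145-labelled cells KLF4, KLF2, KLF3 and KLF11 rose and KLF10, KLF6 and KLF13 fell, 7 of 10 members, where 34.0% of all 14313 genes passed, 17.2% upward and 16.8% downward. Scaling by library size alone instead of TMM moved the share of upward calls among all calls in DU145-labelled cells from 50.6% to 66.6%. With the study's added requirement of an absolute log2 fold change above 1, KLF4 was the only member past the threshold in either line, where 4.75% of all genes passed it in PC3-labelled and 2.03% in DU145-labelled cells. Over the members, the median log2 fold change was 0.20 in each line, beside 0.0046 and 0.0085 over all genes tested. The samples of vehicle and pentamidine did not overlap for 6 of the 9 members tested in PC3-labelled cells and for 7 of 10 in DU145-labelled cells, beside 52.1% and 44.0% of all genes. These shares of members were near those of all genes in PC3-labelled cells and above them in DU145-labelled cells, over a list of 10. The DU145-labelled calls of KLF11 and KLF13 held in 6 and 4 of 16 other fits. The members were chosen with earlier results of these data known, so these shares and medians describe the list only.

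**Figure D1:**
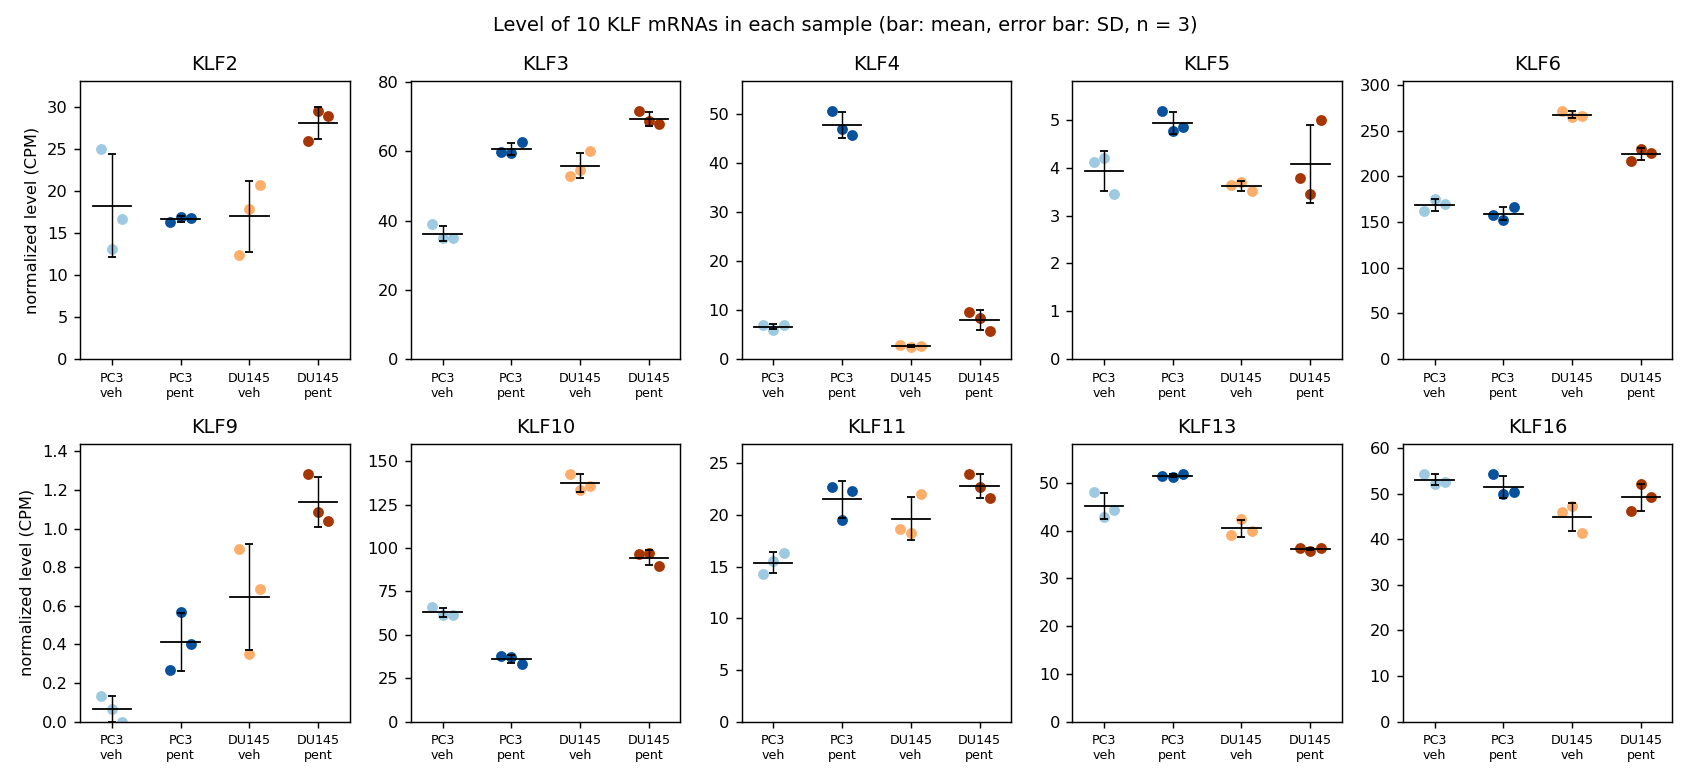
TMM-normalized CPM (vertical axis, from 0, a separate scale per gene) of each KLF mRNA in the 12 samples, by labelled line and treatment (veh, vehicle, pent, pentamidine), with 1 point per sample, a bar at the mean and an error bar of 1 SD (n = 3). KLF4 lies at 5.95 to 6.92 CPM in PC3-labelled vehicle and at 45.7 to 50.6 CPM in pentamidine samples, while KLF16 overlaps between treatments in both lines.

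Among the activating members, KLF4 rose in both lines. In PC3-labelled cells its level was 6.91, 5.95 and 6.92 CPM in the vehicle samples and 50.6, 46.8 and 45.7 CPM in the pentamidine samples. In DU145-labelled cells it was 2.83, 2.52 and 2.75 CPM with vehicle and 9.64, 8.41 and 5.76 CPM with pentamidine. Every pentamidine sample lay above every vehicle sample of its line, and the third pentamidine sample of the DU145-labelled cells was the lowest of its group. The log2 fold change was 2.86 (SE 0.094, edgeR adjusted p = 1.6e-13), a 7.26-fold rise, in PC3-labelled cells and 1.56 (SE 0.19, edgeR adjusted p = 1.4e-09), a 2.94-fold rise, in DU145-labelled cells. Ordered by signed log2 fold change, KLF4 was number 48 from the top of 13861 genes in PC3-labelled cells and number 48 of 14313 in DU145-labelled cells. The response differed between the lines by 1.30 on the log2 scale (SE 0.23, edgeR interaction term, adjusted p = 9.6e-05). It was 1 of 5 members that passed the test of the difference, 3 with a positive and 2 with a negative difference, where 20.4% of all 15226 genes passed, 10.2% and 10.3% in these directions. KLF4 was the only member whose difference also exceeded 1, as 2.62% of all genes did.

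KLF2, a factor of quiescence in endothelium and T cells, rose in DU145-labelled cells. Its level there was 12.4, 17.8 and 20.7 CPM with vehicle and 25.9, 29.5 and 28.9 CPM with pentamidine, with no overlap and a log2 fold change of 0.73 (SE 0.0999, edgeR adjusted p = 4.8e-08). In PC3-labelled cells it was 25.0, 13.1 and 16.6 CPM with vehicle and 16.3, 16.9 and 16.7 CPM with pentamidine. The spread of the PC3-labelled vehicle samples spanned the pentamidine samples, and the log2 fold change of -0.13 did not pass the test (SE 0.16, edgeR adjusted p = 0.561). It was 0.17 without vehicle replicate 1, the library that stood apart. The test of the difference between the lines gave -0.85 (SE 0.22, edgeR adjusted p = 0.0063), -0.55 without that library, and was not past the threshold with DESeq2 (adjusted p = 0.0632).

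KLF2 (ENSG00000127528, chr19:16324817-16327874, plus strand) has a processed pseudogene, KLF2P1, that shares sequence with it, so the reads assigned to each are uncertain. KLF2P1 held 13% to 45.9% of the reads given to the pair, the highest share being in vehicle replicate 1 of the DU145-labelled cells, where the KLF2 level was lowest. The level of KLF2P1 itself did not pass the test in either line (log2 fold change 0.12, edgeR adjusted p = 0.521, and -0.37, edgeR adjusted p = 0.131). Summed over both, the level was 23.8 ± 1.99 CPM with vehicle and 33.4 ± 1.48 CPM with pentamidine in DU145-labelled cells (SD, n = 3), and the samples did not overlap. In PC3-labelled cells the sum was 26.3 ± 7.44 CPM and 25.4 ± 1.04 CPM. The direction of KLF2 in DU145-labelled cells was therefore the same whether the pseudogene was added or not.

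**Figure D2:**
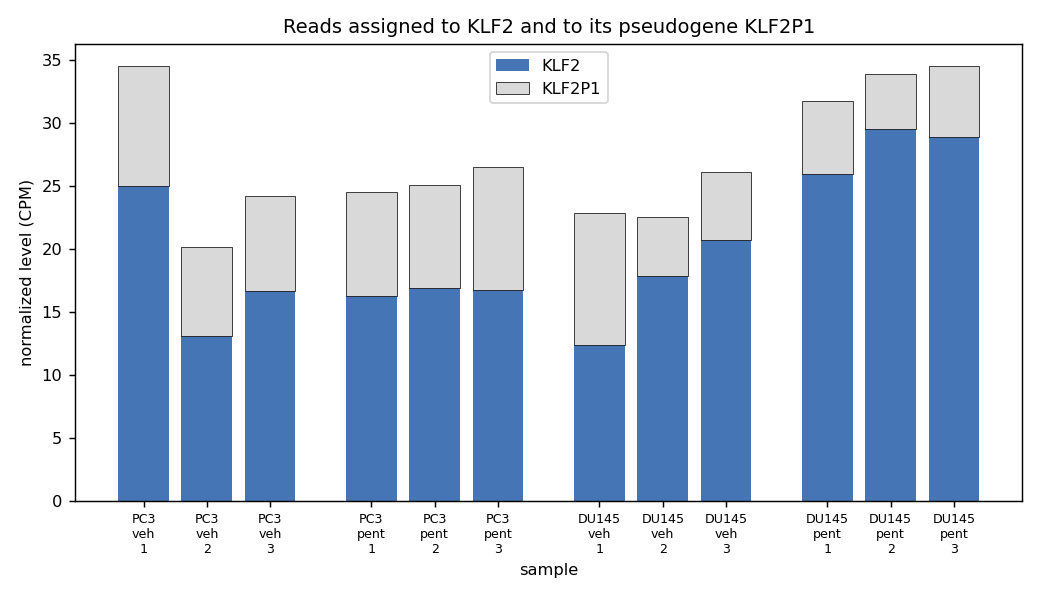
Stacked bars of TMM-normalized CPM (vertical axis, from 0) assigned to KLF2 and to its pseudogene KLF2P1 in each of the 12 samples, grouped by labelled line and treatment (veh, vehicle, pent, pentamidine). The sum is 31.7 to 34.5 CPM in DU145-labelled pentamidine samples and 22.5 to 26.1 CPM in DU145-labelled vehicle samples, and PC3-labelled vehicle replicate 1 stands above the other samples of its line at 34.5 CPM.

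KLF6, a zinc-finger factor studied as a tumour suppressor in the prostate, fell in DU145-labelled cells. Its level there was 272, 265 and 266 CPM with vehicle and 217, 230 and 225 CPM with pentamidine, without overlap (log2 fold change -0.25, SE 0.034, edgeR adjusted p = 3.9e-08). In PC3-labelled cells it was 162, 175 and 170 CPM with vehicle and 158, 153 and 167 CPM with pentamidine, where the groups overlapped and the log2 fold change of -0.08 did not pass (SE 0.054, edgeR adjusted p = 0.235). The difference between the lines was 0.17 (SE 0.062, edgeR adjusted p = 0.0539), just outside the threshold, with an adjusted p of 0.0267 to 0.277 over 21 other fits, of which 7 passed. KLF5 promotes growth in many epithelia. It was low in every sample, at 3.46 to 5.19 CPM in PC3-labelled and 3.46 to 5.00 CPM in DU145-labelled cells, and its log2 fold changes of 0.33 (SE 0.17, edgeR adjusted p = 0.134) and 0.18 (SE 0.20, edgeR adjusted p = 0.531) did not pass. KLF6 (ENSG00000067082) lies at chr10:3775996-3785281 on the minus strand and KLF5 (ENSG00000102554) at chr13:73054976-73077542 on the plus strand.

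KLF3, the member that represses through CtBP, rose in both lines. Its level in PC3-labelled cells was 38.9, 35.0 and 34.8 CPM with vehicle and 59.9, 59.4 and 62.6 CPM with pentamidine (log2 fold change 0.75, SE 0.067, edgeR adjusted p = 1.1e-07). The DU145-labelled samples had 52.9, 54.7 and 60.0 CPM with vehicle and 71.7, 68.8 and 67.8 CPM with pentamidine (log2 fold change 0.32, SE 0.053, edgeR adjusted p = 3.8e-06). The groups did not overlap in either line, and the rise was larger in PC3-labelled cells by 0.43 on the log2 scale (SE 0.087, edgeR adjusted p = 5.7e-04). KLF3 (ENSG00000109787, chr4:38664196-38701042, plus strand) shares 266 exon bases, 4.22% of its exons, with KLF3-AS1 on the opposite strand, and KLF3-AS1 had 2 to 9 counts per sample.

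Of the members that can recruit SIN3A, KLF10 fell in both lines. KLF10 is also known as TGF-beta-inducible early gene. Its level in PC3-labelled cells was 65.9, 61.3 and 61.4 CPM with vehicle and 37.8, 37.2 and 33.5 CPM with pentamidine (log2 fold change -0.79, SE 0.069, edgeR adjusted p = 7.7e-08). The DU145-labelled samples had 143, 133 and 136 CPM with vehicle and 96.8, 97.2 and 89.5 CPM with pentamidine (log2 fold change -0.53, SE 0.043, edgeR adjusted p = 3.0e-15). The groups did not overlap in either line. The fall differed between the lines by -0.26 (SE 0.080, edgeR adjusted p = 0.021), a call that was lost when any of 5 libraries was left out (adjusted p = 0.0541 to 0.088).

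KLF11, the closest relative of KLF10, moved the other way. Its level was 14.3, 15.5 and 16.4 CPM with vehicle and 22.7, 19.5 and 22.3 CPM with pentamidine in PC3-labelled cells, without overlap (log2 fold change 0.49, SE 0.099, edgeR adjusted p = 7.3e-04). In DU145-labelled cells it was 18.6, 18.3 and 22.0 CPM with vehicle and 24.0, 22.7 and 21.7 CPM with pentamidine. There the groups overlapped, and the log2 fold change of 0.22 (SE 0.087) lay at the threshold (edgeR adjusted p = 0.0488, 0.0125 to 0.204 over 16 other fits, of which 6 passed). KLF11 (ENSG00000172059, chr2:10042849-10054836, plus strand) shares 416 exon bases with a gene on the opposite strand, 9.07% of its exons, and whether the counting used strand is not given in the sources used here.

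KLF13, a regulator of lymphocyte and heart genes, rose in PC3-labelled and fell in DU145-labelled cells. Its level was 48.1, 42.9 and 44.4 CPM with vehicle and 51.5, 51.2 and 51.9 CPM with pentamidine in PC3-labelled cells, and 39.0, 42.4 and 40.0 CPM and 36.3, 35.8 and 36.3 CPM in DU145-labelled cells. The groups did not overlap in either line, but both changes were small, with log2 fold changes of 0.20 (SE 0.066, edgeR adjusted p = 0.0226) and -0.16 (SE 0.063, edgeR adjusted p = 0.0448). These single-line calls held in 9 of 16 other fits in PC3-labelled cells (adjusted p = 0.0066 to 0.101) and in 4 of 16 in DU145-labelled cells (adjusted p = 0.0303 to 0.189). The difference between the lines, 0.36 (SE 0.088, edgeR adjusted p = 0.0039), passed in all 21 other fits (adjusted p up to 0.0177). KLF13 (ENSG00000169926) lies at chr15:31326855-31435665 on the plus strand.

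KLF16 (ENSG00000129911, chr19:1852399-1863568, minus strand), which shares 16.4% of its exon bases with a gene on the opposite strand, did not pass the test in either line, with 49.8 to 54.4 CPM in all PC3-labelled samples and 41.3 to 52.1 CPM in all DU145-labelled samples, and log2 fold changes of -0.04 (SE 0.064, edgeR adjusted p = 0.669) and 0.14 (SE 0.061, edgeR adjusted p = 0.0709). In DU145-labelled cells the latter passed in 5 of 16 other fits (adjusted p = 0.0129 to 0.398). KLF9, a factor induced by glucocorticoid and thyroid hormone, was hardly counted. In PC3-labelled cells it had 2, 1 and 0 counts with vehicle and 4, 8 and 6 counts with pentamidine, below the filter of the test. The ratio of depth-scaled counts, 18 against 3 in all, was 6.01 (95% exact interval 1.75 to 31.9, counting error only). In DU145-labelled cells it had 12, 5 and 10 counts with vehicle and 18, 16 and 15 counts with pentamidine, a ratio of 1.78 (1.09 to 2.96) and a log2 fold change of 0.82 that did not pass (SE 0.40, edgeR adjusted p = 0.106). KLF9 (ENSG00000119138) lies at chr9:70384597-70414624 on the minus strand, and KLF10 (ENSG00000155090) at chr8:102648779-102655902 on the minus strand.

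**Figure D3:**
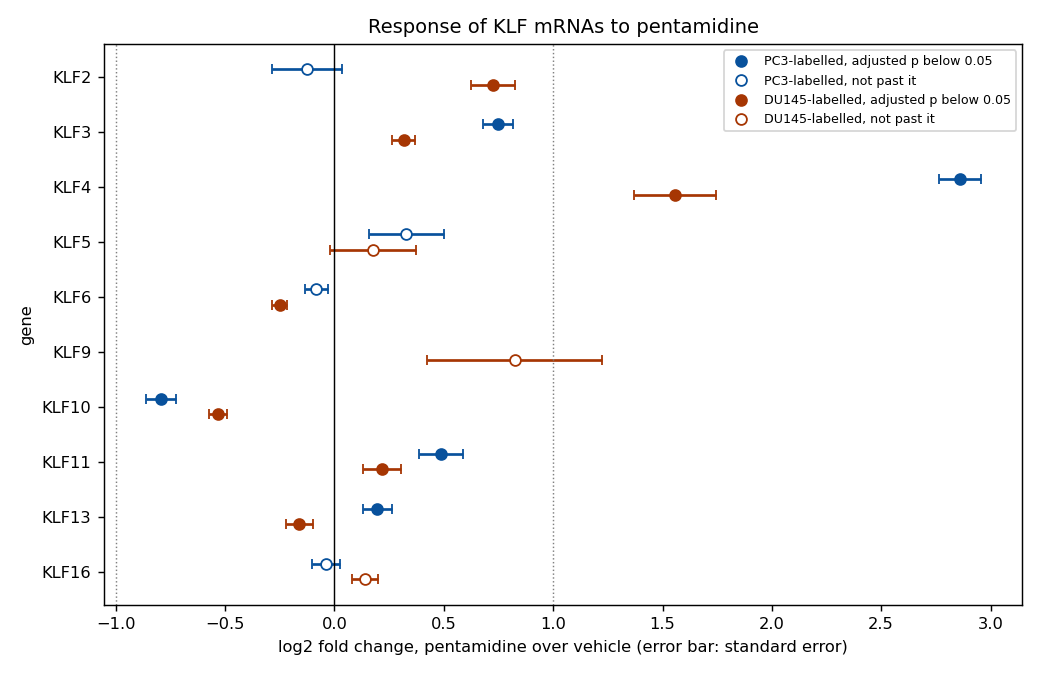
Log2 fold change of pentamidine over vehicle (horizontal axis, error bars 1 standard error, dotted lines at -1 and 1) for each KLF mRNA (vertical axis), in PC3-labelled (blue) and DU145-labelled (brown) cells, filled where the edgeR adjusted p was below 0.05, and with KLF9 shown in 1 line. KLF4 lies farthest right at 2.86 and 1.56, and KLF10 farthest left at -0.79 and -0.53, while KLF2, KLF13 and KLF16 lie on opposite sides of 0 in the lines.

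The second question was how the lines differed in KLF levels without drug. These values use the same vehicle samples as the responses above. Between vehicle samples, 6 of 9 members tested passed an adjusted p of 0.05, 2 higher and 4 lower in PC3-labelled cells, where 65.3% of all 14394 genes passed, 31.5% higher and 33.8% lower. The samples of 7 of these 9 did not overlap, beside 69.1% of all genes. An absolute log2 difference above 1 was also met by 2 members, KLF4 and KLF10, and by 19.2% of all genes. KLF4 (log2 difference 1.26, SE 0.17, edgeR adjusted p = 7.3e-06) and KLF16 (0.22, edgeR adjusted p = 0.0087, but 0.0729 without vehicle replicate 3 of the DU145-labelled cells) were higher in PC3-labelled cells. KLF10 (-1.15, SE 0.054, edgeR adjusted p = 1.7e-11), KLF6 (-0.69, edgeR adjusted p = 2.3e-09), KLF3 (-0.65, edgeR adjusted p = 5.8e-07) and KLF11 (-0.38, edgeR adjusted p = 0.0045) were lower. KLF2, KLF5 and KLF13 did not pass. KLF9, below the filter, had 3 counts over the PC3-labelled and 27 over the DU145-labelled vehicle samples, a ratio of 0.107 after scaling (95% exact interval 0.0208 to 0.348). Summed over the 10 members, the level was 410 ± 7.90 CPM with vehicle and 450 ± 9.67 CPM with pentamidine in PC3-labelled cells, and 589 ± 3.83 CPM and 537 ± 9.96 CPM in DU145-labelled cells (SD, n = 3). The sum thus lay higher with pentamidine in the former and lower in the latter, KLF6 being the largest part of it in every group.

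To compare levels between genes, CPM was divided by the length of the exons in kilobases, which gives FPKM. KLF6 was the highest member in all 4 groups, from 25.9 ± 1.16 FPKM in PC3-labelled pentamidine samples to 43.5 ± 0.594 FPKM in DU145-labelled vehicle samples, and KLF9 was the lowest in all 4, at 0.0129 to 0.220 FPKM. KLF4 moved from place 8 of 10 at 1.80 ± 0.152 FPKM to place 3 at 13.04 ± 0.702 FPKM in PC3-labelled cells. Among DU145-labelled samples its place went from 9 at 0.738 ± 0.0442 FPKM to 8 at 2.17 ± 0.541 FPKM. With pentamidine it was thus above 88.3% of all genes in PC3-labelled and above 69.5% in DU145-labelled cells. KLF10 moved from place 3 at 15.7 ± 0.651 FPKM to place 5 at 9.03 ± 0.587 FPKM in PC3-labelled cells and stayed at place 2 in DU145-labelled cells. Most neighbours in these orders were apart in all samples. The exceptions were KLF3, KLF10 and KLF2 in PC3-labelled pentamidine samples, and KLF3 and KLF2 as well as KLF13 and KLF11 in DU145-labelled vehicle samples, whose ranges overlapped. In bulk RNA, a change in the number of cells of a kind and in the RNA per cell cannot be told apart.

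**Figure D4:**
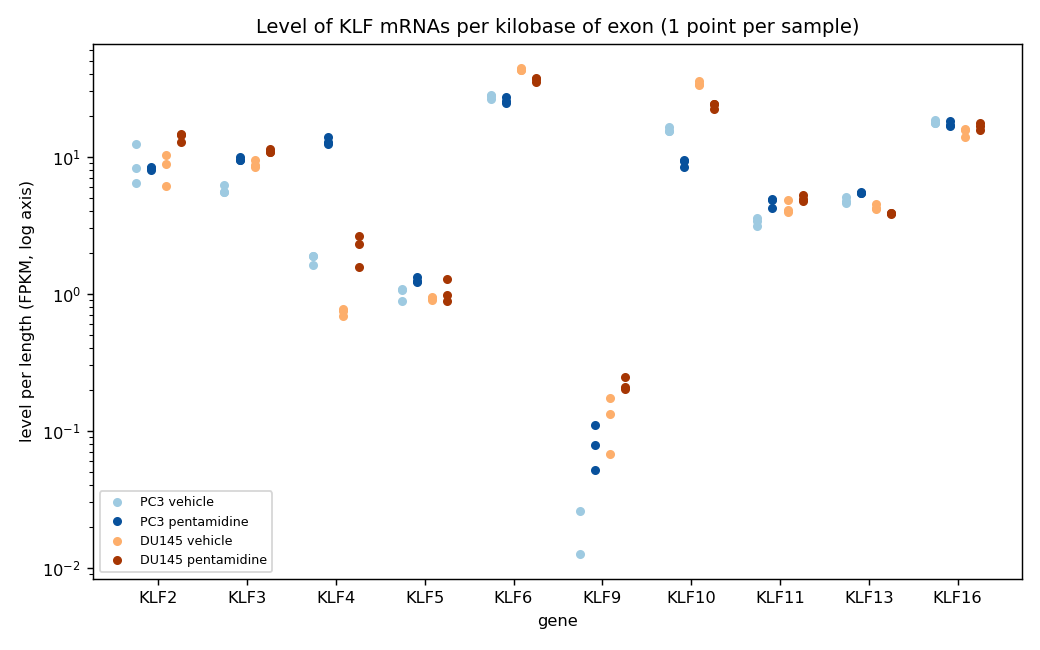
Level of each KLF mRNA per kilobase of exon (vertical axis, FPKM, log axis) in the 12 samples, coloured by labelled line and treatment, with 1 point per sample (1 PC3-labelled vehicle sample of KLF9 at 0 is not drawn). KLF4 in PC3-labelled cells lies at 1.63 to 1.89 FPKM with vehicle and at 12.5 to 13.8 FPKM with pentamidine, and KLF9 lies lowest in every group.

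The genes whose pattern over the 12 samples was most like that of KLF4 were RAB39B, which encodes a Rab GTPase, and ANK2, which encodes ankyrin-B. Likeness was the root mean square difference of log2 CPM, each gene centred on its own mean, over 12 samples and among 15226 genes. It was 0.24 for RAB39B and 0.36 for ANK2, beside a root mean square of 1.49 for KLF4 itself. RAB39B rose from 8.10 ± 0.463 to 53.4 ± 2.24 CPM in PC3-labelled cells and from 3.85 ± 0.275 to 11.3 ± 1.51 CPM in DU145-labelled cells (log2 fold change 2.72 and 1.55, edgeR adjusted p = 9.7e-14 and 2.0e-12). ANK2 rose from 15.1 ± 1.11 to 70.1 ± 2.72 CPM and from 7.06 ± 0.469 to 13.2 ± 0.837 CPM (log2 fold change 2.22 and 0.91, edgeR adjusted p = 2.8e-13 and 2.9e-08). Both were chosen for this pattern, so their values describe it.

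Around the members, lists of related genes were counted, each beside the same shares of all genes given above. Of the other KLF genes, 6 were in the table and 2, KLF7 and KLF12, were tested, of which KLF7 fell in DU145-labelled cells (log2 fold change -0.29, edgeR adjusted p = 8.1e-05). KLF1, KLF14, KLF15 and KLF17 had at most 3 counts in any sample. Of the SP factors, the relatives of the KLFs that also bind GC boxes, SP2 rose and SP4 fell of 4 tested in PC3-labelled cells (log2 fold change 0.22 and -0.56), and SP2 and SP3 rose of 5 in DU145-labelled cells (0.18 and 0.13). The SP4 call held in all 16 other fits, that of SP2 in 7 of 16 in PC3-labelled and 9 of 16 in DU145-labelled cells (edgeR adjusted p = 0.0393 and 0.0418, lost with DESeq2 in both), and that of SP3 in 12. The list of cofactor genes also held genes of ubiquitin ligases, WWP1, FBXW7, FBXO32 and SMURF1. Of its 12 genes tested in PC3-labelled cells 3 rose and 3 fell. CREBBP and EP300, acetyltransferases used by activating KLFs, rose (0.23 and 0.20), and CTBP2, a corepressor used by KLF3, and KAT2B, another acetyltransferase, fell (-0.23 each). CREBBP and CTBP2 held in all 16 other fits, EP300 in 13 and KAT2B in 11. In DU145-labelled cells edgeR and DESeq2 called 0 of the 13 genes of this list. An unadjusted edgeR p below 0.05 was seen for 3, FBXO32 among them.

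The genes upstream of the members moved in mixed directions. Of the ERK5-MEF2 route that induces KLF2 and KLF4 in endothelium, 3 rose and 2 fell of 7 tested in PC3-labelled cells, with the factors MEF2D (log2 fold change 0.45) and MEF2A (0.38) up and the kinases MAPK7, which is ERK5 (-0.29), and MAP3K2 (-0.16) down. The MAP3K2 call lay at the threshold (edgeR adjusted p = 0.0459) and held in 10 of 16 other fits, not with DESeq2 or the replicate block. In DU145-labelled cells 1 of 6 passed, MEF2D (0.18). Of the TGF-beta route that induces KLF10 and KLF11, 2 rose and 3 fell of 7 in PC3-labelled cells and 1 rose and 2 fell of 7 in DU145-labelled cells. SMAD3, a signal transducer of the route, fell in both lines (-0.63 and -0.17) and SMAD2 rose in both (0.29 and 0.18). The ligand gene TGFB2 rose (0.56) and the receptor gene TGFBR1 fell (-0.26) in PC3-labelled cells. TGFB1, another ligand gene, fell in both lines (-0.25 and -0.14). Of these, TGFBR1 lay at the threshold (edgeR adjusted p = 0.0494) and held in 9 of 16 other fits, not with DESeq2 or the replicate block. The TGFB1 call in DU145-labelled cells held in 12 of 16. Of 7 early target genes of TGF-beta tested, 4 rose in PC3-labelled cells, led by CTGF (1.57). In DU145-labelled cells 3 rose, led by PMEPA1 (0.41) and SMAD7 (0.39), and JUNB fell (-0.56). CTGF also rose in DU145-labelled cells (0.33) and PMEPA1 in PC3-labelled cells (0.68). SMAD7 and JUNB did not pass in PC3-labelled cells (0.01 each, edgeR adjusted p = 0.919 and 0.931). KLF10 fell in both lines, and the part of TGF-beta in this was not tested.

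The hormone receptors that induce KLF9 and their targets were counted in the same way. Of 3 receptor genes tested in PC3-labelled cells, NR3C1, the glucocorticoid receptor, rose (log2 fold change 0.18) and THRA, a thyroid hormone receptor, fell (-0.84). The NR3C1 call (edgeR adjusted p = 0.027) held in 8 of 16 other fits, not with DESeq2, library size alone or the replicate block. THRA was also the gene that fell of 2 tested in DU145-labelled cells (-0.32). Of 7 glucocorticoid-induced genes tested, 4 rose and 1 fell in PC3-labelled cells and 2 rose and 3 fell in DU145-labelled cells. TSC22D3, which encodes the glucocorticoid-induced leucine zipper, rose from 7.44 ± 0.563 to 86.5 ± 8.69 CPM (log2 fold change 3.54, edgeR adjusted p = 1.3e-14) and from 4.19 ± 0.835 to 14.2 ± 1.86 CPM (1.77, edgeR adjusted p = 5.2e-15). ERRFI1, an inhibitor of the EGF receptor, rose in both (1.39 and 0.19). FKBP5, a co-chaperone of the receptor, fell in both lines (-0.59 and -0.18). DUSP1 rose in PC3-labelled cells (0.60) and fell in DU145-labelled cells (-0.44). CEBPD fell in DU145-labelled cells (-0.70) and did not pass in PC3-labelled cells (-0.09, edgeR adjusted p = 0.745).

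Of 21 genes described as targets of KLF proteins, 18 were in the table. In PC3-labelled cells 3 rose and 1 fell of 8 tested, and in DU145-labelled cells 2 rose and 3 fell of 10. CDKN1A, the cell cycle inhibitor p21 and a target of KLF4 and KLF6, rose from 54.7 ± 4.51 to 101 ± 5.72 CPM in PC3-labelled cells and from 107 ± 5.80 to 138 ± 1.65 CPM in DU145-labelled cells (log2 fold change 0.89, edgeR adjusted p = 1.9e-08, and 0.37, edgeR adjusted p = 1.8e-10). BIRC5, the gene of survivin, fell in PC3-labelled cells (-0.55), and MAOA (-0.49) and LGALS3 (-0.42) fell in DU145-labelled cells, calls that held in 10 and 11 of 16 other fits and not with DESeq2. The targets moved in both directions in each line, and the part of any KLF protein in this was not tested.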

How the data were processed

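Read counts per gene were deposited by the authors as whole numbers for 12 samples, without normalization. The submitters' processing notes list HISAT2 2.1.0, DESeq 1.18.1 and GRCh38. The counting program, annotation release and strand setting are not given in the sources used here. A table named for FPKM holds counts scaled to each sample's total, not divided by length, and it and the tables of the authors' own comparisons (log2 fold changes and p-values beside the counts) were not used. All 12 count columns were mapped to samples by title, and 0 per-sample columns were left unused. Besides 33595 gene entries, 44 lines were overflow of the annotation text and were not used. Among the entries 137 names had several identifiers (2 with different counts), and keeping 1 entry per name and set of counts left 32077 genes. Of these, 31961 were in GENCODE release 29 and 30906 had the same coordinates there, all 10 members among them.

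CPM here are counts scaled to a TMM-adjusted library of 1000000, and FPKM are CPM per kilobase of merged GENCODE 29 exons. Genes were tested by the quasi-likelihood method of edgeR 4.0.16 in R 4.3.3, after TMM and filterByExpr (minimum count 10), with p-values adjusted by Benjamini-Hochberg over all genes tested, in the 6 samples of each line, in the 6 vehicle samples, and over 12 samples for the interaction of line and treatment. The scripts were tested on simulated data. Alternatives were DESeq2 1.42.0, RLE or library size alone, no mitochondria-encoded genes, no filter, at least 10 counts in every sample, a replicate block, limma 3.58.1 on log2(CPM + 1) and log2(CPM + 0.1), all samples in one fit, an adjusted p below 0.01, and each sample left out. With a pseudocount of 1, limma understates the fold changes of low genes. Python 3.11.15 was used for the rest.

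The members and lists were chosen with earlier results of these data known. The genes named are all members, the 2 genes most like each member past an absolute log2 fold change of 1, and, per list and line, up to 2 genes per direction of largest change with an adjusted p below 0.05. For some genes named in 1 line, the value in the other line is given too. The ligase genes of the cofactor list are named to describe it. CTNNA1 and the markers check the labels. A few genes that these rules name are not reported here. KLF2P1 and KLF3-AS1 were picked because results turn on them. Sequences came from GENCODE and RefSeq tables and the study's primer list. Intervals and count limits cover counting error only, as reads carry no molecular identifiers.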

Additional observations from a re-analysis of the deposited data

Results flagged for a closer look

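The response to pentamidine differed between PC3-labelled and DU145-labelled cells for 5 of the 10 members by the edgeR interaction test, where 20.4% of all genes passed it. The difference (PC3-labelled minus DU145-labelled, log2) was 1.30 for KLF4, 0.43 for KLF3 and 0.36 for KLF13, and -0.85 for KLF2 and -0.26 for KLF10. KLF4 and KLF3 rose in both lines and KLF10 fell in both, so these differ in size. KLF13 rose in one and fell in the other. For KLF2 the difference was -0.55 without vehicle replicate 1 of the PC3-labelled cells, and KLF2P1 took 13% to 45.9% of the reads given to the pair, a share whose part in the difference was not tested. The part of the mismatch between the PC3 label and the CTNNA1 counts in these differences was not tested.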

How the results depend on the processing

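Over the members' log2 fold changes, 694 values were compared under the alternatives. These include the cutoff of 0.01 on the main fit, which can remove calls but not add them. Of the values, 633 were kept, 40 lost the call, 16 gained it and 5 changed sign. Kept means the same direction and side of the threshold. For KLF9 below the filter, which had no main call, it means a value inside the interval of its count ratio. The calls of KLF4, KLF3 and KLF10 within each line, of KLF2 and KLF6 in DU145-labelled cells and of KLF11 in PC3-labelled cells held in all 16 other fits of each. Those of KLF13 in each line and of KLF11 in DU145-labelled cells did not, nor did the differences between lines for KLF10 and KLF2. The changes of sign were KLF2 in PC3-labelled cells (0.17 without PC3-labelled vehicle replicate 1), KLF5 in DU145-labelled cells (-0.00062 without pentamidine replicate 3), the KLF9 difference between lines (-0.011 with limma on log2(CPM + 1)) and KLF2 between vehicle samples (-0.22 without PC3-labelled replicate 1, -0.11 without DU145-labelled replicate 1), none of them called. Leaving out 1 sample at a time, these 3 ranged from -0.325 to 0.17, from -0.00062 to 0.278 and from -0.22 to 0.279 (KLF2 in PC3-labelled cells, KLF5 in DU145-labelled cells and KLF2 between vehicle samples). Without the filter on low counts, the edgeR fit gave KLF9 a log2 value of 2.46 in PC3-labelled cells (adjusted p = 0.0461) and of -3.08 between vehicle samples (adjusted p = 6.49e-04).

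The count of genes past the adjusted p and an absolute log2 fold change above 1 was 658 in PC3-labelled cells, 431 with at least 10 counts in every sample and 332 with limma on log2(CPM + 1). In DU145-labelled cells it was 290, against 193 with DESeq2, 154 and 109. For the difference it was 399, against 251 and 232, and for vehicle samples 2768, against 1432 with at least 10 counts. The first removes low genes and the limma scale shrinks their changes, and the cause for DESeq2 was not tested. The count for the difference at an adjusted p below 0.05, 3112, was 1996 at 0.01. With library size alone the share of upward calls in the difference moved from 49.7% to 33.3%. No scaling moved the median of all genes by over 0.0801, the move between vehicle samples with library size alone. Among the genes named from lists, several lost the call in 4 to 9 of 16 other fits. They were SP2 in both lines, NR3C1, MAP3K2, TGFBR1 and KAT2B in PC3-labelled cells, and SP3, TGFB1, MAOA and LGALS3 in DU145-labelled cells. Fewer fits lost it for EP300 and THRA in PC3-labelled cells (3 and 2) and for THRA and CEBPD in DU145-labelled cells (2 and 1).

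Leaving out 1 sample at a time, the genes past the adjusted p numbered 4866 to 6180 in PC3-labelled cells, 4051 to 4421 in DU145-labelled cells, 2644 to 3268 for the difference and 8777 to 9672 for vehicle samples. The count of members past it was 4 to 5, 5 to 6, 4 to 6 and 5 to 6. Samples with the same replicate number did not deviate together (correlations of -0.073 to 0.039 over 15226 genes). With deviations taken from means of 3 samples, this cannot decide whether samples of the same number were cultured or processed together. With the replicate block the counts were 5599, 4794, 3021 and 9430, and the members past it 5, 5, 5 and 6, KLF11 and KLF13 in DU145-labelled cells being the calls lost (edgeR adjusted p = 0.0505 and 0.053). With 3 samples per group, members at a few counts, as KLF9, had intervals too wide to give the size of a change.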

Other observations

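PAX8 and PAX2, transcription factors of kidney and Müllerian tissues, were counted in all 12 libraries and were picked after their values were seen. PAX8 was at 150 CPM in PC3-labelled vehicle, 101 CPM in PC3-labelled pentamidine, 231 CPM in DU145-labelled vehicle and 165 CPM in DU145-labelled pentamidine samples. PAX2 was at 48.5, 34.2, 47.7 and 44.1 CPM in the same groups. The origin of these counts was not tested.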
